A study of Mus musculus with 12 samples.

Results

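What still differed from uninjured lung after acute lung injury and MSC treatment was measured by setting 3 MSC libraries against 3 Control libraries of whole mouse lung. The members are all genes that passed a filter on low counts, 22915 of the 38349 genes in the deposited table, in 6 of the 12 libraries of the series. MSC lungs came from mice injured with hypoxia and LPS (lipopolysaccharide, a bacterial cell wall component) and treated with MSC, as the series title and group labels give it. The ALI group, 3 libraries, had the injury without either treatment, and tpMSC, 3 libraries, had the injury and the second treatment. Control was the uninjured group. Every library is labelled Wildtype and lung. The labels spell out neither MSC nor tpMSC, and the source of the cells, their dose and route, the interval from injury to harvest and any vehicle used in the ALI and Control groups are not stated in the labels. MSC in the usual sense are mesenchymal stromal cells, which are grown from marrow, fat or cord and are studied in lung injury for the factors they release. The labels do not say whether replicates are separate animals, so the p-values measure the spread between these libraries, which may be technical. ALI values stand beside the MSC values where they help to place them, and the ALI against Control and MSC against Control differences share the 3 Control libraries.

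LPS is sensed by TLR4 on macrophages, epithelium and endothelium and switches on NF-kB, which drives cytokines, chemokines and acute phase proteins. Neutrophils and monocytes then enter the lung, resident alveolar macrophages are partly lost, and capillary endothelium loses features of its resting state. Repair follows with cell division, clearance by macrophages, matrix deposition and, days later, antibody-producing cells, so a lung sampled between injury and recovery can hold signs of both.

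Depth was similar, with 62265089, 66466001 and 70209229 counts in the MSC libraries and 63536268, 67498258 and 67175094 in the Control libraries, within a range of 53083002 to 70209229 over the series. On the first principal component, 37.6% of the variance, Control libraries lay at -89.9, -83.8 and -83.5, ALI libraries from 77.4 to 87.8, and MSC libraries between them at -1.99, 26.9 and 35.4. MSC replicate 3 stood apart on the second component (13.5% of the variance), at 45.9, against -10.6 and -43.8 in the other MSC libraries. Its summed immunoglobulin segments reached 24290 FPKM (the deposited level, scaled for gene length and library depth), against 1020 and 1587 in MSC replicates 1 and 2 and 502 to 911 in Control libraries. Leaving this library out gave 3333 calls in MSC against Control, beside 4265 with all libraries, and many counts below are also given without single libraries. Lung markers were abundant in both groups. Sftpc, the surfactant protein of alveolar type 2 cells, had 7911, 6704 and 7355 FPKM in MSC lungs, against 11439, 10623 and 11401 FPKM in Control lungs. Scgb1a1, the secretory protein of club cells, had 15258, 10629 and 9587 FPKM in MSC lungs, against 14573, 17618 and 22027 FPKM in Control lungs. Of neighbouring tissues, 13 cardiac muscle genes summed to 24.8 to 58.6 FPKM in MSC and 24.8 to 52.7 FPKM in Control libraries, and 11 adipose genes to 20.3 to 69.6 FPKM in MSC and 53.8 to 83.1 FPKM in Control libraries. In bulk tissue, fewer cells of a type and less RNA per cell cannot be told apart.

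After injury and MSC, 4265 of 22915 genes (18.6%) differed from Control at an adjusted p under 0.05 in edgeR's quasi-likelihood test with Benjamini-Hochberg adjustment, the rule for every call below. Of these, 2418 were higher in MSC lungs (10.6% of genes tested) and 1847 were lower (8.06%). The share called was 21.9% among genes with only protein-coding transcripts. It was 25.6% among genes labelled protein-coding and retained intron, and 8.18% among long noncoding RNA genes. The 18.6% used below as the share over all genes is thus lower than that of protein-coding genes. The rises were larger: their median log2 fold change was 0.89, and 464 were at least 4-fold, while the falls had a median of 0.56 and 50 were at least 4-fold. At least 2-fold changes numbered 1428 (6.23%), 1069 of them higher and 359 lower in MSC lungs. By comparison, 9083 genes (39.6%) were called in ALI against Control. Calls depended on single Control libraries: without Control replicate 1 there were 2580 (1540 higher and 1040 lower), without Control replicate 2 there were 2526 (1532 and 994), and without MSC replicate 2 the lower calls numbered 1143.

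**Figure D1:**
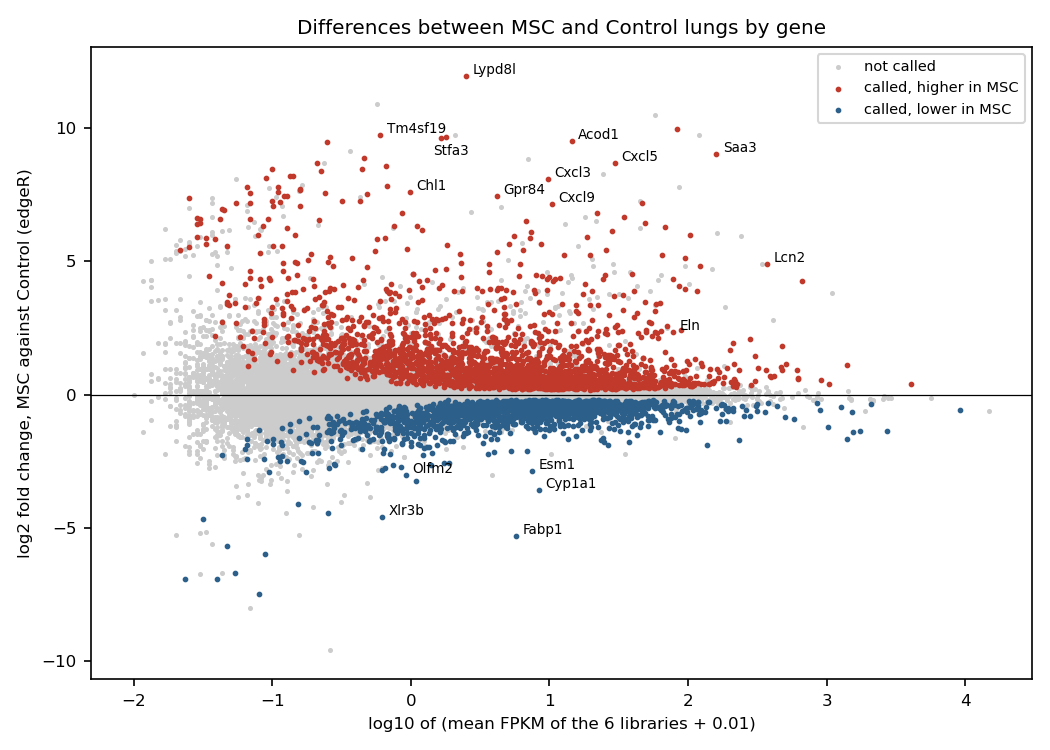
Each point is 1 of the 22915 genes tested, with the log10 of its mean FPKM over the 3 MSC and 3 Control libraries (plus 0.01) on the x axis and its log2 fold change, MSC against Control, on the y axis. Red and blue points are genes called higher and lower in MSC lungs, and grey points are not called. The labelled rises reach much farther from 0 than the labelled falls. Fitted values of genes with no Control count, such as Lypd8l, Stfa3 and Tm4sf19, are not measured folds.

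Among the largest rises were Saa3, Acod1 and the chemokines Cxcl5 and Cxcl3. Saa3, an acute phase apolipoprotein (ENSMUSG00000040026, chr7:46711998-46715700, minus strand, GRCm38), had 255, 413 and 291 FPKM in MSC lungs, against 0.50, 0.77 and 0.61 FPKM in Control lungs. Its log2 fold change was 9.00 ± 0.37 SE (edgeR adjusted p = 6.72e-07), and every MSC library lay far above every Control library. In ALI lungs Saa3 stood at 1475 ± 79.5 FPKM (SD, n = 3), above every MSC library. Acod1, the macrophage enzyme that makes itaconate (chr14:103046977-103056573, plus strand), had 27.2, 23.2 and 36.4 FPKM in MSC lungs, against 0.08, 0.04 and 0 FPKM in Control lungs (log2 fold change 9.49 ± 1.3, edgeR adjusted p = 0.00206; call lost with limma voom, adjusted p = 0.144).

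The neutrophil chemokines Cxcl5 and Cxcl3 were spread more widely between the MSC libraries. Cxcl2, also a chemokine for neutrophils, was higher in MSC lungs with less spread, and its call was kept under every alternative run. Cxcl5, made by epithelium and read by the receptor CXCR2 (chr5:90759360-90761624, plus strand), had 31.4, 40.5 and 106 FPKM in MSC lungs, against 0.17, 0.17 and 0.08 FPKM in Control lungs. Cxcl3, read by the same receptor (chr5:90786103-90789600, plus strand), had 18, 36.6 and 4.07 FPKM in MSC lungs, against 0.08, 0.09 and 0.04 FPKM in Control lungs. MSC replicate 3 was the highest for Cxcl5 and the lowest for Cxcl3. Their log2 fold changes were 8.69 ± 1.05 and 8.09 ± 0.98 (edgeR adjusted p = 0.00113 for both), and each call was lost under 1 alternative. Gpr84, a receptor for medium-chain fatty acids on activated myeloid cells, had 6.85, 14 and 3.95 FPKM in MSC lungs, against 0.05, 0.08 and 0 FPKM in Control lungs. Chl1, a neural-type adhesion molecule, had 1.77, 2.42 and 1.59 FPKM in MSC lungs, against 0.02, 0.01 and 0 FPKM in Control lungs, with a log2 fold change of 7.58 ± 0.45 (edgeR adjusted p = 1.74e-05).

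In 5 of the 12 largest rises every Control library was at 0, and the fold is then a lower bound that sets the summed Control counts to 3. Lypd8l, a Ly6 family protein, was at least 510-fold higher in MSC lungs, at 5.07, 9.13 and 0.79 FPKM, and lost its call in 2 alternatives. Tm4sf19, a tetraspanin-like membrane protein, was at least 110-fold higher, at 0.97, 1.44 and 1.14 FPKM. Cstdc6, Stfa3 and Csta3, cystatin A relatives of the stefin cluster on chromosome 16 that are abundant in mouse neutrophils, were at least 105-fold, 103-fold and 29.7-fold higher. These 3 have close copies beside them, and how reads were divided among the copies is not stated, so their single values are uncertain.

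The largest falls were smaller and less stable. Fabp1, a fatty acid carrier that mouse alveolar macrophages express (chr6:71199827-71205023, plus strand), had 0.26, 0.52 and 0 FPKM in MSC lungs, against 13.4, 11.2 and 8.87 FPKM in Control lungs (log2 fold change -5.32 ± 0.85, edgeR adjusted p = 0.00227). Cd209a, a C-type lectin of monocyte-derived dendritic cells, had 0.75, 0.30 and 0.55 FPKM in MSC lungs, against 3.89, 2.38 and 3.44 FPKM in Control lungs (log2 fold change -2.57 ± 0.46, edgeR adjusted p = 0.00275). Esm1, a proteoglycan of endothelial tip cells, had 3.62, 0.87 and 0.92 FPKM in MSC lungs, against 19.2, 12.4 and 8.10 FPKM in Control lungs. For Fabp1, Cd209a and Esm1 the libraries of the groups did not overlap. Fabp1 and Cd209a, with Olfm2, Cd209c and Bcan, kept their calls under every alternative run. Calls were lost under 1 alternative for Esm1, 4 for Hes2, 6 for Asgr2, 7 each for Ackr4 and Methig1, 8 for Cyp1a1 and 10 for Xlr3b, whose fold rested on 1 Control library at 3.04 FPKM against 0.34 and 0.13 in the others.

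Acute phase genes were all still raised: 16 of 16 were called higher in MSC lungs, with a median log2 fold change of 3.72, beside 18.6% of all genes called and a median absolute log2 fold change of 0.286 over all genes. The count stayed at 16 whichever library was left out. Lcn2, which binds bacterial siderophores and so withholds iron, had 579.8, 877 and 701 FPKM in MSC lungs, against 21.6, 24.7 and 26.9 FPKM in Control lungs (log2 fold change 4.89 ± 0.27, edgeR adjusted p = 2.54e-06). Serpina3n, a secreted inhibitor of serine proteases, had 144, 213 and 130.4 FPKM in MSC lungs, against 10.2, 9.99 and 9.26 FPKM in Control lungs (log2 fold change 4.06 ± 0.16, edgeR adjusted p = 1.24e-07). The groups did not overlap for either gene, and Serpina3n has close copies, so its value is uncertain. The same list lay higher in ALI lungs, with a median log2 fold change against Control of 4.86.

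Of 19 cytokine genes tested, 13 were higher in MSC lungs and 2 were lower (median 1.69). Il6, which drives the acute phase response, had 2.37, 2.84 and 5.36 FPKM in MSC lungs, against 0.02, 0.10 and 0.09 FPKM in Control lungs (log2 fold change 5.60 ± 0.54, edgeR adjusted p = 0.000273). Il1b, the secreted interleukin 1 of activated myeloid cells, had 67.4, 83.7 and 65.0 FPKM in MSC lungs, against 12.0, 10.2 and 7.00 FPKM in Control lungs (log2 fold change 2.90 ± 0.35, edgeR adjusted p = 0.000814). Both were far above Control in each MSC library. Csf3, the growth factor that mobilises neutrophils, had 1.74, 2.59 and 2.79 FPKM in MSC lungs, against 0, 0.06 and 0.02 FPKM in Control lungs. Il33, an alarmin of alveolar type 2 cells, had 41.9, 58.1 and 58.8 FPKM in MSC lungs, against 23.8, 20.6 and 23.4 FPKM in Control lungs. The falls, chosen after their values were seen, were Il18 and Tslp. Il18, an inflammasome-processed cytokine stored in resting cells, had 6.09, 11.3 and 2.75 FPKM in MSC lungs, against 21.0, 17.7 and 16.5 FPKM in Control lungs (log2 fold change -1.45, edgeR adjusted p = 0.0341). Tslp, an epithelial cytokine that acts on dendritic cells, had 2.99, 2.54 and 1.86 FPKM in MSC lungs, against 5.35, 5.23 and 3.85 FPKM in Control lungs (log2 fold change -0.95, edgeR adjusted p = 0.00668). Without MSC replicate 1 or any 1 of the Control libraries, only 1 of these falls was called.

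Chemokines formed a larger set, of which 21 of 30 were higher and 1 was lower in MSC lungs (median 2.64). Cxcl13, which draws B cells, had 88.2, 149 and 139 FPKM in MSC lungs, against 2.90, 4.11 and 3.02 FPKM in Control lungs (log2 fold change 5.24 ± 0.31, edgeR adjusted p = 1.39e-05). Ccl20, the ligand of CCR6, had 9.35, 23.6 and 10.7 FPKM in MSC lungs, against 0.33, 0.06 and 0.22 FPKM in Control lungs (log2 fold change 6.10 ± 0.54, edgeR adjusted p = 0.000243). MSC libraries were well apart from Control for both genes. The single fall was Cx3cl1, a membrane-bound chemokine of endothelium and epithelium, with 7.28, 4.22 and 4.32 FPKM in MSC lungs, against 12.2, 9.95 and 10.9 FPKM in Control lungs. That call was absent without MSC replicate 2 or 3 or Control replicate 1. Ccl6 was not called, at 100.3, 277 and 20.2 FPKM in MSC lungs, against 132, 141 and 128 FPKM in Control lungs (95% interval of the log2 difference -1.56 to 1.54), so its MSC libraries lay on both sides of Control.

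NF-kB targets and their feedback genes rose less far: 16 of 20 were higher and none was lower in MSC lungs (median 0.94). Bcl3, a nuclear partner of NF-kB, had 13.3, 14.3 and 18.4 FPKM in MSC lungs, against 3.58, 3.64 and 4.28 FPKM in Control lungs (log2 fold change 2.01 ± 0.24, edgeR adjusted p = 0.000541). Relb, a subunit of the non-canonical NF-kB pathway, had 10.2, 11.9 and 12.2 FPKM in MSC lungs, against 4.14, 4.92 and 4.68 FPKM in Control lungs. Sod2, the mitochondrial superoxide dismutase, had 21.3, 28.1 and 20.8 FPKM in MSC lungs, against 8.69, 8.72 and 9.75 FPKM in Control lungs. None of the 3 overlapped. In MSC against ALI, 2352 genes (10.3%) were called over the table (1113 without MSC replicate 1), and of this list 16 were lower and none higher in MSC lungs, so these genes lay between ALI and Control. Of 16 inflammasome genes 7 were higher and 1 lower, with 4 higher when Control replicate 1, 2 or 3 was left out and none lower without MSC replicate 1 or any 1 Control library. Nlrp3, the sensor protein, had 8.90, 10.6 and 5.07 FPKM in MSC lungs, against 1.17, 1.23 and 1.04 FPKM in Control lungs (log2 fold change 2.84 ± 0.45, edgeR adjusted p = 0.00342).

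**Figure D2:**
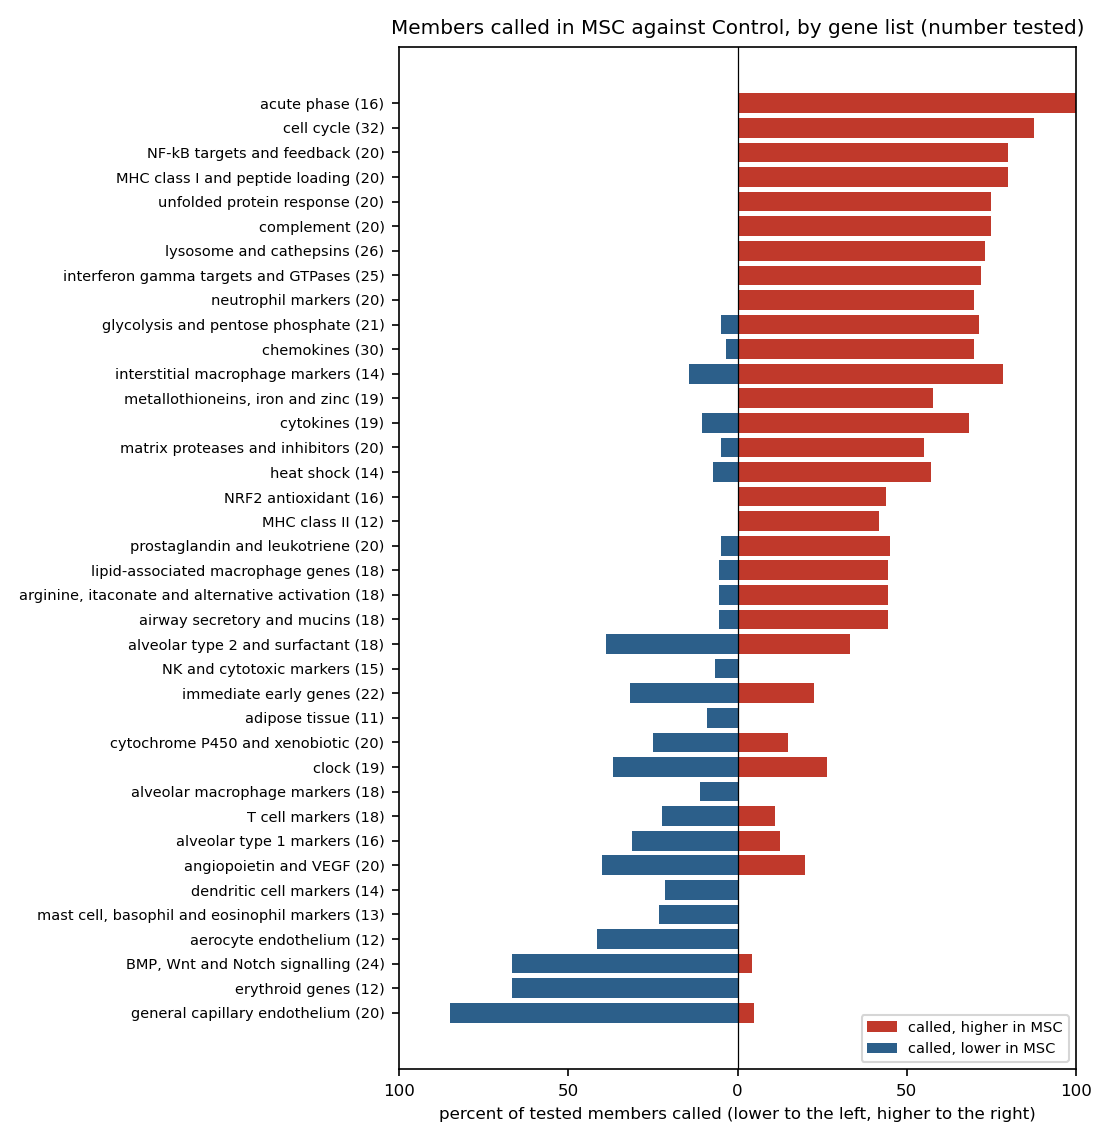
Bars give the percent of tested members of each gene list called higher (red, to the right) or lower (blue, to the left) in MSC against Control, with the number tested in brackets. Lists with at least 10 tested members that lie farthest from balance in either direction are shown, with acute phase genes at the top and general capillary endothelium at the foot, against 10.6% higher and 8.06% lower over all genes.

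Neutrophil markers remained above Control, with 14 of 20 higher and none lower in MSC lungs (median 2.11, against a median of 4.33 in ALI against Control). Summed over the list, the level was 1163, 1753 and 1777 FPKM in MSC lungs, 5923 to 6761 FPKM in ALI lungs and 279, 215 and 195 FPKM in Control lungs. S100a8 and S100a9 form calprotectin, the main cytosolic protein of neutrophils, and were chosen after their values were seen. S100a9 had 286, 406 and 656 FPKM in MSC lungs, against 145, 99.7 and 77.0 FPKM in Control lungs (log2 fold change 2.08, edgeR adjusted p = 0.0019). Trem1, a receptor that amplifies myeloid inflammation, had 5.05, 7.20 and 5.26 FPKM in MSC lungs, against 1.75, 1.35 and 1.44 FPKM in Control lungs (log2 fold change 1.96 ± 0.19, edgeR adjusted p = 0.000129). Il1r2, the decoy receptor for interleukin 1, had 5.56, 9.90 and 5.32 FPKM in MSC lungs, against 0.42, 0.49 and 0.42 FPKM in Control lungs. All of these lay above Control in each MSC library. Among the 6 members not called was Ngp, chosen after its values were seen. It encodes a granule protein made in marrow precursors and had 1.5, 1.85 and 4.16 FPKM in MSC lungs, against 2.06, 2.67 and 2.73 FPKM in Control lungs (95% interval of the log2 difference -0.91 to 0.97), and the groups overlapped. What part the neutrophil level had in the cytokine and chemokine differences was not tested.

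Macrophage genes differed by type. Of 14 interstitial macrophage markers, 11 were higher and 2 lower in MSC lungs (median 1.66). C1qa, which with C1qb and C1qc forms the first component of the classical complement pathway, had 87.3, 126 and 149 FPKM in MSC lungs, against 20.5, 21.1 and 19.8 FPKM in Control lungs (log2 fold change 2.58 ± 0.22, edgeR adjusted p = 8.71e-05). C1qb and C1qc rose by nearly the same amount, with log2 fold changes of 2.70 and 2.61. Trem2, a lipid receptor of phagocytes, had 4.26, 6.63 and 7.92 FPKM in MSC lungs, against 1.54, 1.36 and 1.37 FPKM in Control lungs (log2 fold change 2.15 ± 0.23, edgeR adjusted p = 0.000242). For these genes the MSC and ALI levels were close, with C1qa at 118 ± 14.8 FPKM in ALI lungs (SD, n = 3). The 2 falls, chosen after their values were seen, were Lyve1, a hyaluronan receptor shared with lymphatic endothelium, and Tmem119. Lyve1 had 35.7, 25.3 and 11.2 FPKM in MSC lungs, against 66.6, 52.6 and 44.2 FPKM in Control lungs, and both falls were lost without Control replicate 1, 2 or 3, and there was 1 lower call without MSC replicate 1, 2 or 3.

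Alveolar macrophage markers varied widely between the 3 MSC libraries. Of 18 tested, 2 were lower and none higher in MSC lungs (11.1% called, against 18.6% over all genes). Siglecf, the sialic acid-binding lectin of these cells, had 0.89, 2.82 and 0.61 FPKM in MSC lungs, against 6.72, 6.29 and 6.44 FPKM in Control lungs (log2 fold change -2.16 ± 0.49, edgeR adjusted p = 0.0132). Ear2, a ribonuclease of the same cells, had 34.0, 83.8 and 1.17 FPKM in MSC lungs, against 133, 126 and 109 FPKM in Control lungs, and was not called (95% interval of the log2 difference -3.89 to 0.66). Chil3, a chitinase-like protein, had 172, 552 and 12.0 FPKM in MSC lungs, against 143, 114 and 93.5 FPKM in Control lungs, and was not called either (interval -1.10 to 3.26). Replicate 2 was the highest and replicate 3 the lowest MSC library for each of these genes. Summed over the list, MSC libraries had 479, 1210 and 109 FPKM and Control libraries 653, 627 and 561 FPKM. Without MSC replicate 2 the lower calls numbered 6, and without MSC replicate 3 there were 2 higher and 2 lower. Without Control replicate 3 there was 1 higher.

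Many genes of activated and lipid-laden phagocytes were higher, though 9 members each of the monocyte, lipid-associated and arginine lists were not called. Cd14, the LPS co-receptor of monocytes and macrophages, had 90.02, 150.3 and 103 FPKM in MSC lungs, against 8.80, 11.2 and 12.3 FPKM in Control lungs (log2 fold change 3.42 ± 0.33, edgeR adjusted p = 0.000273). Of 16 monocyte markers, 6 were higher and 1 lower, and of 18 genes of lipid-associated macrophages 8 were higher and 1 lower. Among 18 genes of arginine and itaconate metabolism and alternative activation, 8 were higher and 1 lower. Lower monocyte calls numbered 2 without Control replicate 1. On the lipid-associated list they numbered 0 without MSC replicate 1 or Control replicate 1 or 2, and on that list and the arginine list 2 without MSC replicate 2. Arg1, the arginase of alternatively activated macrophages, had 4.74, 14.3 and 6.47 FPKM in MSC lungs, against 0.64, 0.94 and 1.00 FPKM in Control lungs (log2 fold change 3.30 ± 0.36, edgeR adjusted p = 0.000311). ALI lungs were at 4.01 ± 0.405 FPKM for Arg1 (SD, n = 3). Socs3, an inhibitor of interleukin 6 signalling, had 45.5, 61.4 and 61.2 FPKM in MSC lungs, against 9.85, 11.7 and 11.1 FPKM in Control lungs. Lysosomal genes rose widely, with 19 of 26 higher and none lower (median 0.65). Ctsb, a cysteine protease of lysosomes, had 130.2, 185 and 169 FPKM in MSC lungs, against 64.4, 64.4 and 62.8 FPKM in Control lungs (log2 fold change 1.35 ± 0.12, edgeR adjusted p = 5.75e-05), with no overlap.

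Complement genes were higher for 15 of 20, with none lower (median 0.94). Besides the C1q chains, C3ar1, the receptor for the C3a fragment, had 6.61, 9.24 and 9.38 FPKM in MSC lungs, against 0.89, 1.24 and 1.03 FPKM in Control lungs (log2 fold change 3.01 ± 0.29, edgeR adjusted p = 0.000236). Leaving out any 1 library gave 12 to 15 higher calls and no lower call.

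**Figure D3:**
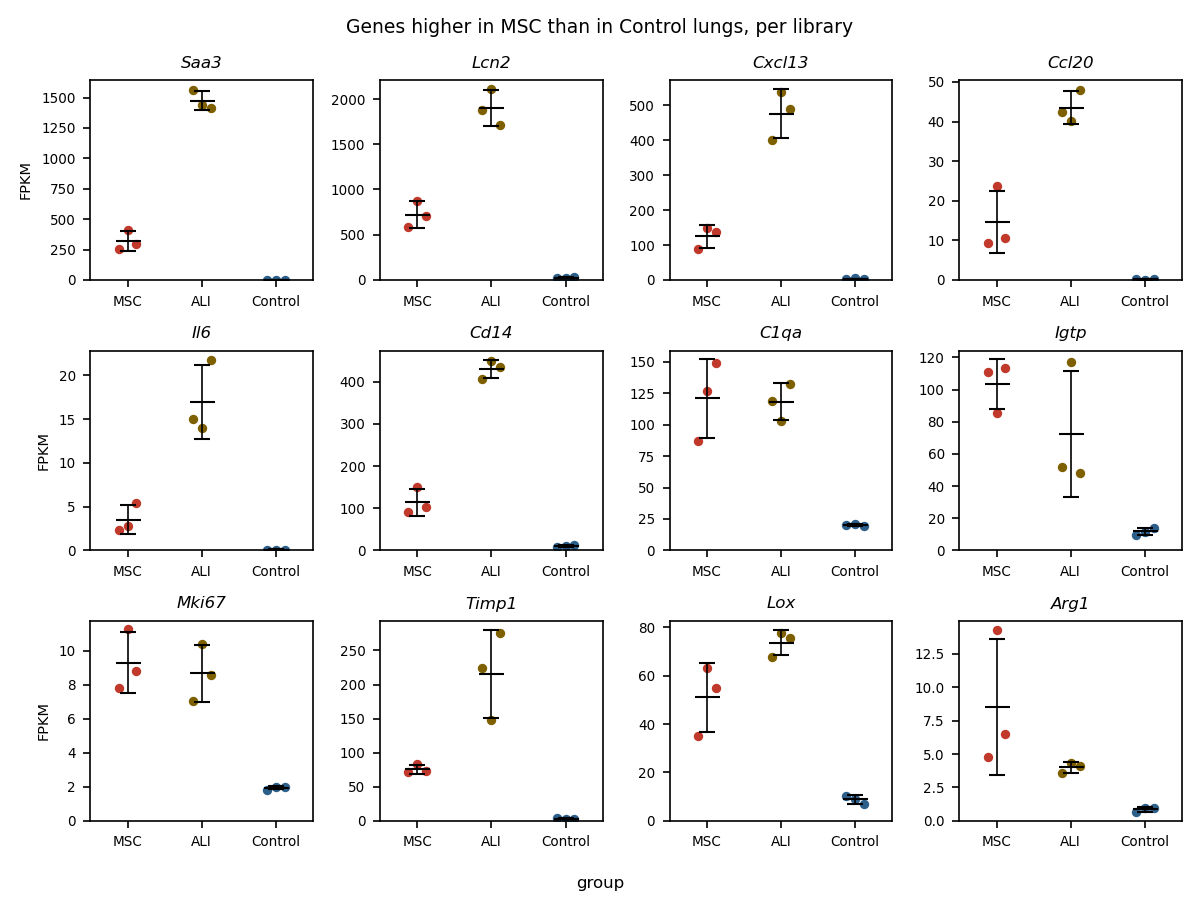
Each panel shows 1 gene that was higher in MSC than in Control lungs, with FPKM on a linear axis from 0 and 3 libraries each for MSC, ALI and Control. Points are libraries, and the bar with whiskers is the mean ± SD. MSC libraries lie between ALI and Control for Saa3, Lcn2, Cxcl13, Ccl20, Il6, Cd14 and Timp1, while for C1qa, Igtp and Mki67 the MSC and ALI points overlap and for Arg1 the highest point is MSC replicate 2.

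Interferon gamma targets were higher in MSC lungs. The list of 25 had 18 members called higher and none lower, with a median log2 fold change of 2.12, against 1.85 in ALI against Control. Igtp, an interferon-inducible GTPase (Irgm3) that acts on vacuoles of intracellular pathogens, had 111, 85.5 and 114 FPKM in MSC lungs, against 9.68, 11.7 and 14.1 FPKM in Control lungs (log2 fold change 3.14 ± 0.53, edgeR adjusted p = 0.00441). Tgtp1, a GTPase of the same family, had 60.7, 48.9 and 74.0 FPKM in MSC lungs, against 6.12, 6.99 and 7.70 FPKM in Control lungs (log2 fold change 3.15 ± 0.53, edgeR adjusted p = 0.00428). Wars1, the tryptophan tRNA synthetase, had 115, 95.2 and 95.4 FPKM in MSC lungs, against 33.9, 35.5 and 33.0 FPKM in Control lungs. In 24 of the 25 genes every MSC library lay above every Control library, as was so for 18.2% of all genes tested. Ifng itself, chosen after its values were seen, had 1.21, 0.75 and 0.87 FPKM in MSC lungs, against 0.09, 0.21 and 0.18 FPKM in Control lungs (log2 fold change 2.48, edgeR adjusted p = 0.028). The ALI and tpMSC libraries, which enter the shared estimate of the spread, varied widely. Igtp was at 72.4 ± 39.0 FPKM in ALI lungs and 144.5 ± 92.6 FPKM in tpMSC lungs (SD, n = 3). Calls on the list numbered 5, 5 and 7 without Control replicate 1, 2 or 3 and 11 without MSC replicate 3.

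The list includes chemokines that interferon gamma induces. Cxcl9, a ligand of CXCR3 that draws T cells, had 27.4, 12.0 and 22.5 FPKM in MSC lungs, against 0.17, 0.11 and 0.15 FPKM in Control lungs (log2 fold change 7.14 ± 1.56, edgeR adjusted p = 0.0152; lost under 4 alternatives). Irf8, a transcription factor of myeloid cells on the same list, was not called, with 8.90, 7.65 and 10.2 FPKM in MSC lungs, against 7.10, 8.05 and 7.96 FPKM in Control lungs (95% interval of the log2 difference -0.38 to 0.83). Promoters of these genes, the called member with the largest change and a member not called, are shown from RefSeq (GRCm38.p6), as the 250 bases before the start of transcription, 5′ to 3′ on the gene's strand. Cxcl9 lies at chr5:92328080-92328329 (minus strand) and Irf8 at chr8:120736108-120736357 (plus strand). Capitals mark the sequence GAAANNGAA, searched on both strands, which resembles the interferon-stimulated response element.
Cxcl9: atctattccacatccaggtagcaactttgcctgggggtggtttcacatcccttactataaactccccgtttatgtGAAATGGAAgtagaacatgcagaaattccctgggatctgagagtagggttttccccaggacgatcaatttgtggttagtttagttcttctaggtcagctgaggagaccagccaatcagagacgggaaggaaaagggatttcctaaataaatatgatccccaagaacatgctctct
Irf8: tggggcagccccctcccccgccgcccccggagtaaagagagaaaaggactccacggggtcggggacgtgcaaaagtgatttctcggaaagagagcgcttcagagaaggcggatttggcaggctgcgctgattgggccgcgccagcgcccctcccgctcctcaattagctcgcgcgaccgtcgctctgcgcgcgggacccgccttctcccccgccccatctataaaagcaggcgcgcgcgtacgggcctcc
The Cxcl9 promoter holds 1 match, starting at position -175 from the start of transcription, and none was found in the Irf8 window. Over the 16 list members matched to a RefSeq promoter, 13 (81.2%) held the motif in the 300 bases that run from 250 before to 50 after the start, and it occurs in 8.57% of all 27025 promoters. For every gene only the first start listed in RefSeq was searched, here and below. A match in these letters is a description and was not tied to the change of any gene.

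Of the type I interferon-stimulated genes, 7 of 28 were higher and none lower, with a median log2 fold change of 0.74. The 25.0% called was near the share among protein-coding genes (21.9% to 25.6% in the 2 classes given above), against 18.6% over all genes. The count was 0, 1 and 2 without Control replicate 1, 2 and 3, and 4 and 2 without MSC replicate 1 and 3, and with only the MSC and Control libraries fitted it was 17. Oas2, which makes the activator of RNase L, had 6.95, 4.90 and 10.1 FPKM in MSC lungs, against 1.84, 2.18 and 1.98 FPKM in Control lungs (log2 fold change 1.88 ± 0.40, edgeR adjusted p = 0.0118). Genes of MHC class I and peptide loading were called higher in 16 of 20 cases and lower in none (median 0.94), with 8 and 10 higher without Control replicate 1 and 2. B2m, the light chain of class I molecules, had 1560, 2093 and 2074 FPKM in MSC lungs, against 801, 882 and 1003 FPKM in Control lungs (log2 fold change 1.11 ± 0.17, edgeR adjusted p = 0.00118). H2-K1, a classical class I heavy chain with close copies in the genome, had 106, 158 and 157 FPKM in MSC lungs, against 58.8, 64.0 and 70.1 FPKM in Control lungs. For class II, 5 of 12 were higher, among them Ciita, the master activator of these genes, with 7.19, 7.24 and 11.2 FPKM in MSC lungs, against 2.47, 3.14 and 2.92 FPKM in Control lungs. There were 3 higher class II calls without MSC replicate 3 or Control replicate 1.

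Antibody genes set 1 MSC library apart. Of 181 immunoglobulin segments tested, 26 were called higher and none lower, with a median log2 fold change of 3.06, against 0.61 and 11 calls when MSC replicate 3 was left out. Among 150 genes typed as immunoglobulin variable segments, 12.7% were called, below the 18.6% over all genes. Without Control replicate 1, 2 or 3 the calls numbered 6, 6 and 4, and without MSC replicate 1 or 2 they numbered 74 and 50. Ighg2c, a heavy chain constant region of class-switched antibody, had 5.69, 24.0 and 470.0 FPKM in MSC lungs, against 0, 0.27 and 0.22 FPKM in Control lungs (log2 fold change 9.97 ± 2.23, edgeR adjusted p = 0.0171; lost under 5 alternatives, up to adjusted p = 0.536). All MSC libraries exceeded Control, by widely different amounts. The list of germinal centre and plasma cell markers had 7 of 20 higher and 1 lower, with 2, 1 and 1 higher without Control replicate 1, 2 and 3 and 12 without MSC replicate 1. Jchain, which joins antibody polymers, had 22.6, 32.9 and 646 FPKM in MSC lungs, against 5.42, 10.3 and 9.49 FPKM in Control lungs (chosen after its values were seen, edgeR adjusted p = 0.0346). In ALI libraries the summed immunoglobulin segments were 2797, 2312 and 6137 FPKM. Of 15 B cell markers none was called in edgeR, with 5 at an unadjusted p under 0.05 and 4 called by DESeq2. Cd79a, a chain of the B cell receptor, had 13.9, 7.87 and 18.7 FPKM in MSC lungs, against 13.6, 30.8 and 21.6 FPKM in Control lungs (95% interval of the log2 difference -1.53 to 0.15).

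T cell markers were split, with 2 of 18 higher and 4 lower in MSC lungs (33.3% called, against 18.6% over all genes). There were 0 or 1 higher without any library other than MSC replicate 1, and 2 lower without MSC replicate 2 or Control replicate 2 or 3. The falls included genes of naive cells: Lef1, a partner of beta-catenin, had 0.90, 0.48 and 0.63 FPKM in MSC lungs, against 1.38, 1.70 and 1.78 FPKM in Control lungs (log2 fold change -1.26 ± 0.20, edgeR adjusted p = 0.00138). Ccr7, the homing receptor of naive T cells and migratory dendritic cells, had 6.08, 3.34 and 3.77 FPKM in MSC lungs, against 8.29, 12.5 and 11.2 FPKM in Control lungs (log2 fold change -1.27 ± 0.23, edgeR adjusted p = 0.00321). Icos, a co-stimulator of activated T cells, had 1.45, 1.64 and 3.30 FPKM in MSC lungs, against 0.53, 1.00 and 1.05 FPKM in Control lungs, and its call was lost under 3 alternatives. The groups did not overlap for Lef1, Ccr7 or Icos. Of 14 dendritic cell markers 3 were lower and none higher (21.4% called, near the 18.6% over all genes). Clec9a, a receptor of cross-presenting dendritic cells, had 10.8, 5.64 and 6.94 FPKM in MSC lungs, against 15.4, 17.1 and 14 FPKM in Control lungs. Natural killer and cytotoxic markers gave 1 call in 15 (6.67%, against 18.6% over all genes), lower in MSC lungs and lost under 7 alternatives (Klrb1c). There were 3 lower calls without MSC replicate 1 and none when any other MSC or Control library was left out. Cd3e, a chain of the T cell receptor complex, was not called (95% interval of the log2 difference -0.89 to 0.00). Mast cell, basophil and eosinophil markers gave 3 lower calls of 13 (23.1%, near the 18.6% over all genes). Among these Kit, the stem cell factor receptor, had 17.8, 10.3 and 11.0 FPKM in MSC lungs, against 28.7, 25.1 and 26.5 FPKM in Control lungs. Kit is not confined to these cells, and which cells its fall came from was not tested.

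Erythroid transcripts were lower. Of 12 tested, 8 were called lower and none higher (median -1.36). Hbb-bt, a beta globin with close copies, had 859, 546 and 602 FPKM in MSC lungs, against 2934, 1528 and 1955 FPKM in Control lungs (log2 fold change -1.67 ± 0.29, edgeR adjusted p = 0.0036). Alas2, the first enzyme of haem synthesis in red cell precursors, had 15.1, 11.8 and 13.4 FPKM in MSC lungs, against 40.3, 24.0 and 29.8 FPKM in Control lungs (log2 fold change -1.21 ± 0.23, edgeR adjusted p = 0.00463). In all 12 members every MSC library lay below every Control library, as was so for 19.8% of all genes tested. The list summed to 3528 to 4928 FPKM in MSC libraries and 7724 to 15170 FPKM in Control libraries, and the part of blood left in the tissue was not tested.

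**Figure D4:**
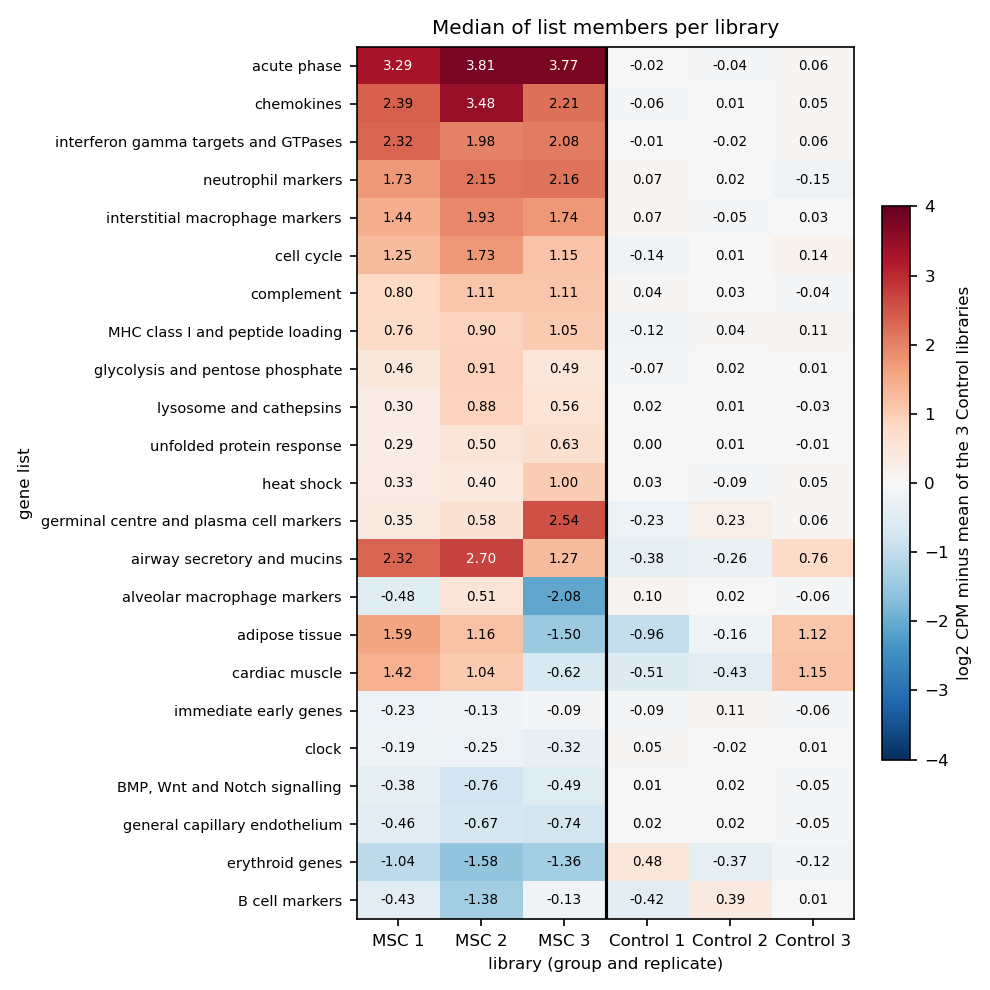
Rows are gene lists and columns are the 3 MSC and 3 Control libraries. Each cell is the median over the list of log2 CPM minus the mean of the Control libraries, from blue (lower) to red (higher). CPM are counts scaled to the TMM-adjusted library total. Acute phase genes lie at 3.29, 3.81 and 3.77 in MSC libraries, while alveolar macrophage markers (-0.48, 0.51 and -2.08), plasma cell markers (0.35, 0.58 and 2.54) and adipose genes (1.59, 1.16 and -1.5) differ between MSC libraries, with adipose and cardiac genes also high in Control replicate 3.

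Capillary endothelium remained below Control. Of 20 markers of general capillary endothelium, the cells that line most alveolar capillaries and divide after injury, 17 were lower and 1 was higher in MSC lungs (median -0.60). Cldn5, the tight junction claudin of endothelium, had 166, 165 and 131 FPKM in MSC lungs, against 224, 243 and 246 FPKM in Control lungs (log2 fold change -0.62 ± 0.10, edgeR adjusted p = 0.00153). Tie1, a co-receptor of the angiopoietin receptor Tek, had 42.4, 37.4 and 31.9 FPKM in MSC lungs, against 60.8, 61.3 and 57.4 FPKM in Control lungs (log2 fold change -0.67 ± 0.10, edgeR adjusted p = 0.00121). Ptprb, the phosphatase that restrains Tek, had 37.1, 27.9 and 28.5 FPKM in MSC lungs, against 54.9, 53.4 and 48.9 FPKM in Control lungs. For all 3 the MSC libraries lay below Control without overlap. The exception was Nos3, the endothelial nitric oxide synthase, chosen after its values were seen, with 5.22, 7.75 and 7.06 FPKM in MSC lungs, against 4.25, 4.22 and 4.14 FPKM in Control lungs (log2 fold change 0.68, edgeR adjusted p = 0.00474). Between 14 and 17 falls were called whichever library was left out. The larger falls of the list, also chosen after their values were seen, were Plvap, the diaphragm protein of capillary fenestrae (104, 38.0 and 31.5 FPKM in MSC lungs, against 236, 230.1 and 179 FPKM in Control lungs), and Hpgd, which breaks down prostaglandins (175, 87.0 and 69.4 FPKM in MSC lungs, against 316, 385 and 373 FPKM in Control lungs). In both, MSC replicate 1 was the library closest to Control.

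Aerocytes, the thin gas-exchange endothelium, had 5 of 12 markers lower and none higher. Tbx2, a transcription factor, had 65.2, 55.5 and 48.7 FPKM in MSC lungs, against 98.2, 97.2 and 88.4 FPKM in Control lungs (log2 fold change -0.73 ± 0.14, edgeR adjusted p = 0.00327). Kdr, the main VEGF receptor, had 31.9, 19.98 and 21.3 FPKM in MSC lungs, against 47.8, 46.3 and 43.9 FPKM in Control lungs. Its ligand Vegfa, made in lung largely by alveolar type 1 cells, had 237, 156 and 210.4 FPKM in MSC lungs, against 369, 355 and 346 FPKM in Control lungs (log2 fold change -0.82 ± 0.12, edgeR adjusted p = 0.000967). Receptor and ligand were thus both lower in every MSC library. Over the angiopoietin and VEGF genes, 8 of 20 were lower and 4 higher, with 2 higher without MSC replicate 2 or Control replicate 1 or 3. Angpt2, the ligand that loosens endothelium, was among the lower ones, with 3.60, 2.30 and 2.42 FPKM in MSC lungs, against 7.47, 7.72 and 7.49 FPKM in Control lungs (log2 fold change -1.43 ± 0.17, edgeR adjusted p = 0.00036). Pgf, the placental growth factor, went the other way, with 2.93, 4.66 and 2.66 FPKM in MSC lungs, against 0.75, 1.3 and 0.94 FPKM in Control lungs.

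Markers of larger and lymphatic vessels pointed both ways, with 5 of 18 higher and 6 lower, and 3 higher without MSC replicate 2 or Control replicate 1. The higher ones included adhesion molecules of activated venules, chosen after their values were seen. Selp, P-selectin, had 2.78, 2.63 and 2.48 FPKM in MSC lungs, 21.3 ± 6.57 FPKM in ALI lungs (SD, n = 3), and 0.51, 0.78 and 0.55 FPKM in Control lungs (log2 fold change MSC against Control 2.10, edgeR adjusted p = 0.0212). Efnb2, the ephrin of arterial endothelium, had 21.2, 13.3 and 12.6 FPKM in MSC lungs, against 39.3, 38.7 and 35.8 FPKM in Control lungs (log2 fold change -1.26 ± 0.20, edgeR adjusted p = 0.00173). Selp and Efnb2 lay on opposite sides of Control in every MSC library.

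Many transcripts of BMP, Wnt and Notch signalling, which keeps vessels quiescent and sets arterial fate, were lower, and the signalling itself was not measured. Of 24 genes, 16 were lower and 1 was higher in MSC lungs (70.8% called, against 18.6% over all genes). Among receptors, Acvrl1, the endothelial receptor for BMP9 and BMP10, had 89.6, 66.5 and 68.0 FPKM in MSC lungs, against 129, 139 and 129 FPKM in Control lungs (log2 fold change -0.81 ± 0.11, edgeR adjusted p = 0.000608). Eng, its co-receptor, had 67.9, 40.3 and 41.3 FPKM in MSC lungs, against 127, 118 and 112 FPKM in Control lungs (log2 fold change -1.25 ± 0.17, edgeR adjusted p = 0.000779). Of ligands, Bmp6 had 24.5, 12.9 and 16.3 FPKM in MSC lungs, against 47.1, 47.1 and 46.1 FPKM in Control lungs (log2 fold change -1.37 ± 0.19, edgeR adjusted p = 0.000817), and Bmp2 was the only member called higher (log2 fold change 0.64, edgeR adjusted p = 0.0197, lost without MSC replicate 3, Control replicate 1 or Control replicate 3). Each of these falls held in all 3 MSC libraries. The direct BMP targets Id1 and Id3, chosen after their values were seen, were only a little lower, with log2 fold changes of -0.36 and -0.28 (edgeR adjusted p = 0.0143 and 0.0415). The Id3 call was lost under 6 alternatives, among them leaving out MSC replicate 1 or 2 or any 1 Control library (adjusted p up to 0.138 in edgeR). Smad6, another BMP target that feeds back on the pathway, had 29.5, 16.4 and 14.7 FPKM in MSC lungs, against 50.6, 52.4 and 57.0 FPKM in Control lungs. The Notch ligand Dll4 had 18.3, 9.09 and 5.88 FPKM in MSC lungs, against 39.7, 36.5 and 31.9 FPKM in Control lungs, and the Notch target Hey1 had 18.9, 8.80 and 7.67 FPKM in MSC lungs, against 37.7, 37.5 and 34.3 FPKM in Control lungs. Endothelial markers fell in the same libraries, and their part in the falls of these genes was not tested.

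**Figure D5:**
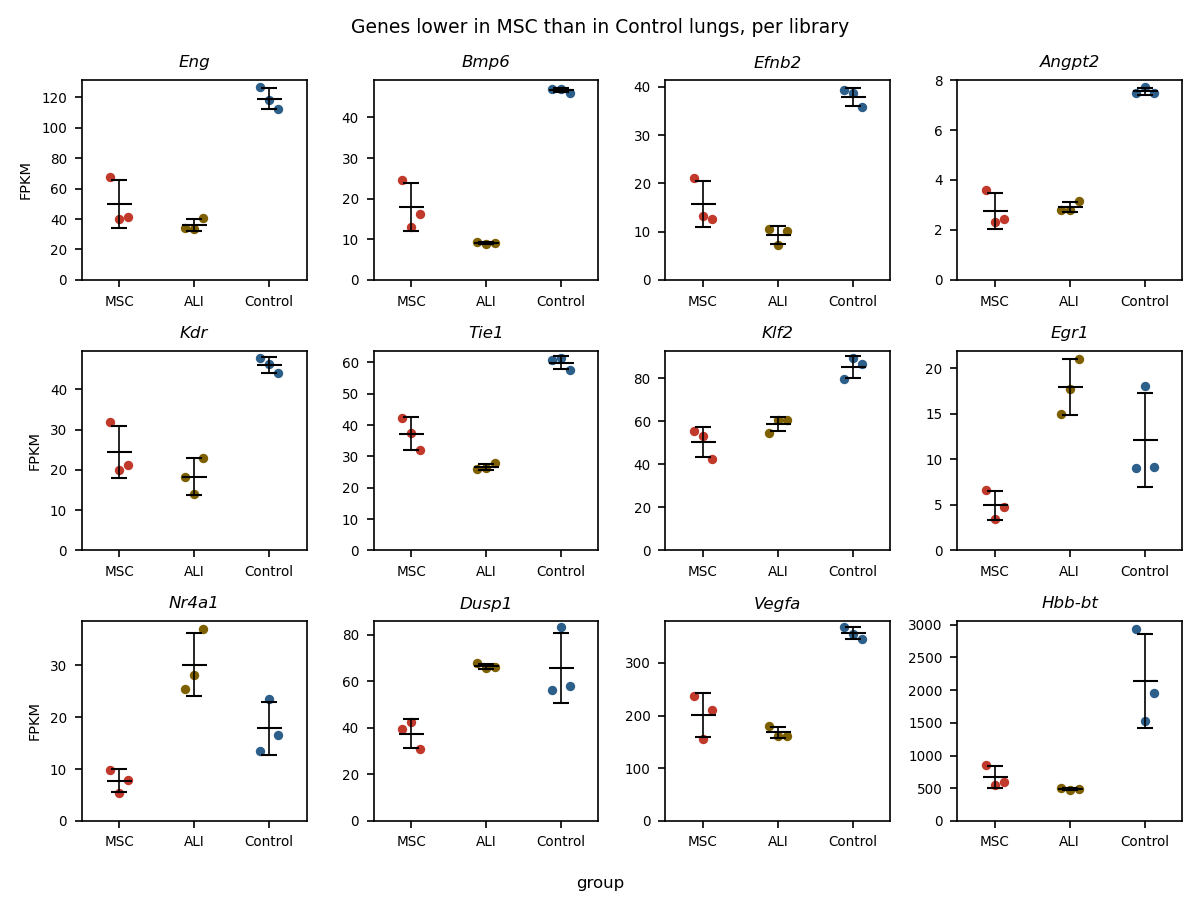
Each panel shows 1 gene that was lower in MSC than in Control lungs, with FPKM on a linear axis from 0 and 3 libraries each for MSC, ALI and Control. Points are libraries, and the bar with whiskers is the mean ± SD. For the endothelial genes Eng, Bmp6, Efnb2, Kdr and Tie1 the ALI and MSC points lie below Control, whereas for Egr1, Nr4a1 and Dusp1 the ALI points lie within or above the Control range and the MSC points below both groups.

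Alveolar type 2 genes moved in both directions, with 6 of 18 higher and 7 lower. Sftpd, a collectin that opsonises microbes, had 528, 587 and 769.8 FPKM in MSC lungs, against 315, 299 and 305 FPKM in Control lungs (log2 fold change 1.05 ± 0.16, edgeR adjusted p = 0.00106). Sftpb, which spreads the surfactant film, had 819.7, 667 and 675 FPKM in MSC lungs, against 1131, 1052 and 1041 FPKM in Control lungs (log2 fold change -0.57 ± 0.12, edgeR adjusted p = 0.00594). Sftpd and Sftpb moved in opposite directions, each without overlap between the groups. Muc1, a membrane mucin, had 85.4, 86.2 and 87.5 FPKM in MSC lungs, against 64.3, 64.6 and 65.7 FPKM in Control lungs. The 7 lower calls were 4 or fewer without MSC replicate 2, Control replicate 1 or Control replicate 2. Of 16 alveolar type 1 markers, 5 were lower and 2 higher. Cav1, the coat protein of caveolae, had 273, 221 and 247 FPKM in MSC lungs, against 391, 384 and 374 FPKM in Control lungs (log2 fold change -0.62 ± 0.13, edgeR adjusted p = 0.00537). Pdpn, a surface glycoprotein also found on lymphatic endothelium, had 106, 120.3 and 107 FPKM in MSC lungs, against 69.5, 74.2 and 80.2 FPKM in Control lungs (log2 fold change 0.58 ± 0.10, edgeR adjusted p = 0.00211).

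Genes of transitional epithelium, the state between type 2 and type 1 cells in repair, were higher for 6 of 16 and lower for 1, with none lower without MSC replicate 2 or Control replicate 1 or 2. Cdkn1a, the cell cycle inhibitor p21, had 19.3, 32.4 and 20.9 FPKM in MSC lungs, against 8.27, 8.63 and 7.41 FPKM in Control lungs (log2 fold change 1.59 ± 0.17, edgeR adjusted p = 0.000233). Of 18 p53 targets, with Cdkn1a among them, 3 were higher and 2 lower (27.8% called, against 18.6% over all genes). That became 1 higher without MSC replicate 2 or Control replicate 3, with 1 lower call without MSC replicate 2 and none without MSC replicate 3 or any Control library. In the airways, 8 of 18 secretory and mucin genes were higher and 1 was lower, with 5 higher without MSC replicate 1 or 2 and 4 without Control replicate 1 or 2. The lower call was absent without MSC replicate 2 or 3 or any 1 Control library, and lower calls numbered 2 without MSC replicate 1. Pigr, which carries antibody across epithelium, had 77.5, 104 and 141 FPKM in MSC lungs, against 7.61, 10.1 and 13.3 FPKM in Control lungs (log2 fold change 3.39 ± 0.29, edgeR adjusted p = 0.000115). Muc4, a membrane mucin, had 6.28, 6.01 and 6.53 FPKM in MSC lungs, against 1.86, 1.65 and 2.19 FPKM in Control lungs (log2 fold change 1.73 ± 0.24, edgeR adjusted p = 0.00109). Both were raised in every MSC library. Bpifa1, a secreted protein of upper airway epithelium, had 27.9, 31.9 and 0.19 FPKM in MSC lungs, against 0.28, 0.11 and 5.81 FPKM in Control lungs and was not called (95% interval of the log2 difference -1.77 to 8.32). Motile cilia gave 1 higher and 1 lower call of 15 (13.3% called, against 18.6% over all genes). None was called higher without MSC replicate 2 or 3 or Control replicate 1 or 2. Of 17 ion and fluid transport genes, 6 were higher and 2 lower, with 3 higher without Control replicate 2 and 1 lower without MSC replicate 2 or 3 or Control replicate 1 or 3. Slc26a4, the anion exchanger pendrin, had 11.0, 13.5 and 30.6 FPKM in MSC lungs, against 0.91, 1.13 and 0.73 FPKM in Control lungs (log2 fold change 4.32 ± 0.67, edgeR adjusted p = 0.00334), and Aqp5, the water channel of type 1 cells and glands, had 63.7, 58.3 and 52.6 FPKM in MSC lungs, against 73.9, 76.1 and 84.6 FPKM in Control lungs.

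Matrix genes were higher for 12 of 26 and lower for 3 (median 0.70), with 1 lower without MSC replicate 2. Timp1, an inhibitor of metalloproteinases, had 71.2, 82.7 and 73.1 FPKM in MSC lungs, against 4.04, 3.17 and 2.78 FPKM in Control lungs (log2 fold change 4.51 ± 0.27, edgeR adjusted p = 1.31e-05). Lox, which crosslinks collagen and elastin, had 35.0, 62.9 and 55.0 FPKM in MSC lungs, against 10.3, 9.22 and 7.03 FPKM in Control lungs (log2 fold change 2.54 ± 0.20, edgeR adjusted p = 5.75e-05). Adamts4, which cuts aggrecan and versican, had 1.25, 1.38 and 1.37 FPKM in MSC lungs, against 0.10, 0.06 and 0.07 FPKM in Control lungs. These 3 were raised in each MSC library. Col12a1, a collagen of fibril surfaces, was lower, with 1.67, 1.61 and 1.20 FPKM in MSC lungs, against 3.65, 3.51 and 3.49 FPKM in Control lungs (log2 fold change -1.24 ± 0.21, edgeR adjusted p = 0.00249). Col3a1, a fibrillar collagen on the fibroblast list, had 93.9, 153 and 76.7 FPKM in MSC lungs, against 46.6, 36.1 and 45.7 FPKM in Control lungs (log2 fold change 1.35 ± 0.23, edgeR adjusted p = 0.00263). That list gave 4 higher and 4 lower calls of 20, with 2 higher without any 1 Control library and 1 or 2 lower without MSC replicate 2 or 3 or any 1 Control library. Has2, the enzyme that makes hyaluronan, and Tnfaip6, the hyaluronan-binding protein TSG-6 that MSC are known to secrete, were both higher. Tnfaip6 had 1.80, 1.41 and 1.81 FPKM in MSC lungs, 4.23 ± 1.31 FPKM in ALI lungs (SD, n = 3), and 0.39, 0.26 and 0.58 FPKM in Control lungs (log2 fold change MSC against Control 2.03 ± 0.31, edgeR adjusted p = 0.00113). Of 21 genes marking MSC or known among their secreted factors, 7 were higher and 6 lower, and these transcripts cannot be assigned to given or resident cells.

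Stress and metabolic genes were raised on several lists. Metallothioneins and genes of iron and zinc handling gave 11 higher and no lower calls of 19. Mt2, a metal-binding protein, had 64.6, 76.4 and 49.5 FPKM in MSC lungs, against 4.54, 4.91 and 4.78 FPKM in Control lungs (log2 fold change 3.75 ± 0.16, edgeR adjusted p = 1.76e-07). Cp, the copper oxidase ceruloplasmin, had 90.5, 122 and 85.0 FPKM in MSC lungs, against 19.9, 19.2 and 21.1 FPKM in Control lungs (log2 fold change 2.31 ± 0.16, edgeR adjusted p = 6.7e-06). Of NRF2 targets, 7 of 16 were higher and none lower. Slc7a11, the cystine importer, had 2.04, 4.07 and 1.28 FPKM in MSC lungs, against 0.13, 0.13 and 0.12 FPKM in Control lungs (log2 fold change 4.29 ± 0.53, edgeR adjusted p = 0.00113). All of these named genes were separated from Control in every library.

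Glycolysis and pentose phosphate genes were higher for 15 of 21 and lower for 1 (median 0.61, against 1.10 in ALI against Control). Ldha, lactate dehydrogenase A, had 94.8, 135 and 95.5 FPKM in MSC lungs, against 56.8, 58.9 and 64.4 FPKM in Control lungs (log2 fold change 0.86 ± 0.12, edgeR adjusted p = 0.000849). Oxidative phosphorylation gave 1 higher and 1 lower call of 22 (9.09% called, against 18.6% over all genes), with a median of -0.01. None was called lower without MSC replicate 2 or 3 or Control replicate 2 or 3. Hypoxia targets were higher for 13 of 26 and lower for 4, with Vegfa among the lower ones and 2 lower without MSC replicate 2 or 3 or Control replicate 1 or 2. Ndrg1, a hypoxia-induced differentiation gene, had 8.67, 12.2 and 9.27 FPKM in MSC lungs, against 4.74, 3.70 and 3.44 FPKM in Control lungs (log2 fold change 1.36 ± 0.19, edgeR adjusted p = 0.00103). Car9, the carbonic anhydrase often used as a hypoxia marker, was not called, with 0.80, 0.77 and 0.52 FPKM in MSC lungs, against 0.73, 1.00 and 0.80 FPKM in Control lungs (95% interval of the log2 difference -0.80 to 0.26). The groups did not overlap for Ldha or Ndrg1 and did for Car9.

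Unfolded protein response genes were higher for 15 of 20 and lower for none (8 and 9 higher without Control replicate 1 or 3). Hspa5, the chaperone BiP, had 158, 181 and 229.6 FPKM in MSC lungs, against 102, 99.1 and 95.7 FPKM in Control lungs (log2 fold change 0.95 ± 0.15, edgeR adjusted p = 0.00138). Heat shock genes were higher for 8 of 14 and lower for 1, with 2, 2 and 4 higher without Control replicate 1, 2 and 3. Hspa1b, the inducible HSP70, had 14.7, 13.3 and 117 FPKM in MSC lungs, against 2.20, 1.98 and 2.46 FPKM in Control lungs (log2 fold change 4.46 ± 0.94, edgeR adjusted p = 0.0133; lost under 3 alternatives). MSC replicate 3 was the highest for both genes, and it is also the library with the high antibody transcripts. Cytochrome P450 and xenobiotic genes had 3 of 20 higher and 5 lower. Lower calls numbered 8 without MSC replicate 1, 2 without MSC replicate 2 or Control replicate 1 or 2, and 3 without MSC replicate 3 or Control replicate 3. Cyp1b1, an inducible oxygenase of vessels and fibroblasts, had 5.25, 6.65 and 5.76 FPKM in MSC lungs, against 1.05, 1.12 and 1.28 FPKM in Control lungs (log2 fold change 2.37 ± 0.14, edgeR adjusted p = 2.06e-06). Cyp1a1, a target of the aryl hydrocarbon receptor like Cyp1b1, went the other way, with 3.28, 0.28 and 0.30 FPKM in MSC lungs, against 11.2, 18.5 and 17.0 FPKM in Control lungs.

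Cell division genes were raised as a block. Of 32 cell cycle genes, 28 were higher and none lower in MSC lungs (87.5% called, against 18.6% over all genes), with a median log2 fold change of 1.47 beside 1.48 in ALI against Control. In edgeR's MSC against ALI comparison none of the 32 was called, with 3 at an unadjusted p under 0.05 and 0 called by DESeq2. Mki67, the nuclear marker of dividing cells, had 7.81, 11.3 and 8.80 FPKM in MSC lungs, 8.67 ± 1.67 FPKM in ALI lungs (SD, n = 3), and 1.84, 2.01 and 1.98 FPKM in Control lungs (log2 fold change MSC against Control 2.27 ± 0.24, edgeR adjusted p = 0.000369). Aurkb, a kinase of chromosome segregation, had 2.5, 4.07 and 2.61 FPKM in MSC lungs, against 0.87, 0.98 and 1.06 FPKM in Control lungs (log2 fold change 1.66 ± 0.21, edgeR adjusted p = 0.00049). Among members chosen after their values were seen, the cyclin Ccnb1 had 2.77, 4.67 and 2.36 FPKM in MSC lungs, against 0.54, 0.71 and 0.73 FPKM in Control lungs (log2 fold change 2.30, edgeR adjusted p = 0.00138). Mcm2, a subunit of the replication helicase, had 3.47, 3.81 and 3.11 FPKM in MSC lungs, against 2.48, 2.64 and 2.87 FPKM in Control lungs and was not called (95% interval of the log2 difference -0.09 to 0.86). E2f1, a transcription factor of the G1 to S transition, was not called either, with 3.21, 4.58 and 3.34 FPKM in MSC lungs, against 3.74, 3.13 and 3.34 FPKM in Control lungs (interval -0.23 to 0.50). Without MSC replicate 2 or Control replicate 1, 23 of 32 were higher. The replication-dependent histones, which oligo(dT) selection largely misses, gave no call in edgeR among 13 tested, with 1 at an unadjusted p under 0.05 and 0 called by DESeq2.

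Many cell cycle genes are known to be driven through CCAAT boxes and the CHR element. Windows before a RefSeq start are shown for the called member with the largest change, Ccnb1, and for a member not called, E2f1. The windows are the 250 bases before the first start of transcription listed in RefSeq (GRCm38.p6), 5′ to 3′ on the gene's strand. They lie at chr13:100786487-100786736 (minus strand) for Ccnb1 and chr2:154569427-154569676 (minus strand) for E2f1. Capitals mark CCAAT, and TTTGAA (CHR) and the E2F sites TTTCCCGC and TTTGGCGC were searched as well, all on both strands.
Ccnb1: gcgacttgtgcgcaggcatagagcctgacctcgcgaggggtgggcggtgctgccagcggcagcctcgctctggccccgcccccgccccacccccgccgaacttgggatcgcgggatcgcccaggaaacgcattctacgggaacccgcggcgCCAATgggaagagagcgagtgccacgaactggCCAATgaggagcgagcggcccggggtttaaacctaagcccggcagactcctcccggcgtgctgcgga
E2f1: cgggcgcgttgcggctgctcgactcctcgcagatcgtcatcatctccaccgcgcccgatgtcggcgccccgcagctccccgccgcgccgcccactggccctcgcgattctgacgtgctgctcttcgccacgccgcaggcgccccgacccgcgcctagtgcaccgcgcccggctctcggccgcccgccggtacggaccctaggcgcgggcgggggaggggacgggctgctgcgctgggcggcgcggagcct
The Ccnb1 promoter holds CCAAT starting at positions -99 and -67. None of the 4 motifs was found in the E2f1 window. That window reads in frame as coding sequence within the gene, and other starts of E2f1 were not searched. Called and uncalled members therefore cannot be compared from these windows. Of 27 list members matched to a RefSeq promoter, 21 (77.8%) held CCAAT within the same 300 bases, as did 37.9% of all 27025 promoters, and 13 (48.1%) held TTTGAA, as did 18.1% of all promoters. The E2F sites were found in 2 (7.41%) and 3 (11.1%) members, against 1.11% and 0.537% of all promoters.

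Circadian clock genes lay on both sides of Control. Of 19 tested, 5 were higher and 7 lower in MSC lungs, but the lower calls were 1 to 3 without MSC replicate 2 or 3 or any 1 Control library. The higher calls held both activators and repressors. Bmal1, the activating partner of CLOCK, had 1.65, 2.04 and 2.96 FPKM in MSC lungs, against 0.66, 0.74 and 0.86 FPKM in Control lungs (log2 fold change 1.57 ± 0.18, edgeR adjusted p = 0.000295). Npas2, which can stand in for CLOCK, had 0.85, 1.24 and 1.43 FPKM in MSC lungs, against 0.12, 0.28 and 0.12 FPKM in Control lungs (log2 fold change 2.74 ± 0.36, edgeR adjusted p = 0.000531). Nfil3, a repressor at D-box sites, had 5.70, 11.3 and 7.20 FPKM in MSC lungs, against 1.19, 1.32 and 1.73 FPKM in Control lungs (log2 fold change 2.52 ± 0.26, edgeR adjusted p = 0.000187). Cry1, a core repressor, was higher as well (log2 fold change 0.63, edgeR adjusted p = 0.00623). Output genes of the opposite phase separated MSC replicate 1 from the others. Dbp, a D-box activator, had 31.0, 3.28 and 2.87 FPKM in MSC lungs, against 58.6, 56.6 and 59.0 FPKM in Control lungs, and was not called (95% interval of the log2 difference -4.18 to -0.28, edgeR adjusted p = 0.109). Nr1d1, the repressor REV-ERB alpha, chosen after its values were seen, had 33.5, 8.19 and 9.14 FPKM in MSC lungs, against 62.1, 61.0 and 52.7 FPKM in Control lungs (edgeR adjusted p = 0.0378). The time of day of harvest is not stated in the labels, and its part in these values was not tested.

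For the clock, promoters of Npas2 (called, largest change) and Ciart, a repressor that was not called, are shown in the same form, at chr1:39194022-39194271 (plus strand) and chr3:95882229-95882478 (minus strand). Ciart had 8.65, 8.58 and 9.39 FPKM in MSC lungs, against 8.97, 9.03 and 9.15 FPKM in Control lungs (95% interval of the log2 difference -0.33 to 0.30). Capitals mark the E-box CACGTG, which CLOCK and BMAL1 bind, and the D-box TTATGNAA was searched too.
Npas2: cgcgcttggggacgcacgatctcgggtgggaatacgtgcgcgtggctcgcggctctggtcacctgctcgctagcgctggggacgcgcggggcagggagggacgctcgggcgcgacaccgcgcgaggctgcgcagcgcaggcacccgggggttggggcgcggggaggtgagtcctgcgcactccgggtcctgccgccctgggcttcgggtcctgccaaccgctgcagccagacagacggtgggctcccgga
Ciart: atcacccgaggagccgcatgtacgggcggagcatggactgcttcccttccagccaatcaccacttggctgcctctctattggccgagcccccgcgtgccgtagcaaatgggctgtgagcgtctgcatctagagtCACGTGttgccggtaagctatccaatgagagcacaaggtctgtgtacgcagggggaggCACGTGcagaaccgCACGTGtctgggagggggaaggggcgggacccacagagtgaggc
Neither motif was found in the Npas2 window, while Ciart holds CACGTG starting at positions -116, -58 and -44. Other starts of these genes were not searched. Among the 15 clock members matched to a RefSeq promoter, 5 (33.3%) held the E-box and 2 (13.3%) the D-box within those 300 bases, against 7.24% and 3.52% of all 27025 promoters.

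Immediate early genes, the first transcription factors switched on by a stimulus, were also split, with 5 of 22 higher and 7 lower in MSC lungs (median -0.15), while in ALI against Control the median was 0.83. Junb had 51.1, 58.7 and 58.8 FPKM in MSC lungs, against 25.4, 32.8 and 25.4 FPKM in Control lungs (log2 fold change 1.02 ± 0.14, edgeR adjusted p = 0.000567). Klf2, a flow-induced factor of quiescent endothelium and naive lymphocytes, had 55.3, 53.3 and 42.3 FPKM in MSC lungs, against 79.4, 89.5 and 86.7 FPKM in Control lungs (log2 fold change -0.75 ± 0.12, edgeR adjusted p = 0.00117). Fos, a partner of the Jun proteins, was not called, with 8.03, 10.3 and 9.69 FPKM in MSC lungs, against 9.73, 16.3 and 8.61 FPKM in Control lungs (95% interval of the log2 difference -0.79 to 0.19). Without Control replicate 2 there were 3 lower calls, and without MSC replicate 2 there were 4.

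Some genes lay outside the span between Control and ALI, differing from both in the same direction. These comparisons share the MSC libraries, so a library that is extreme enters both. Above both was Eln, the elastin of alveolar walls and arteries (chr5:134702593-134747323, minus strand, GRCm38), with 68.9, 176 and 148 FPKM in MSC lungs, 31.9, 57.6 and 37.3 FPKM in ALI lungs and 31.8, 25.2 and 21.4 FPKM in Control lungs. Its log2 fold change was 2.34 ± 0.37 against Control (edgeR adjusted p = 0.00273) and 1.58 against ALI (edgeR adjusted p = 0.0235), and no MSC library overlapped either group. Smpd3, a sphingomyelinase with a role in bone and cartilage matrix, had 1.75, 3.23 and 2.20 FPKM in MSC lungs, 0.92, 1.20 and 1.66 FPKM in ALI lungs and 0.75, 0.77 and 0.76 FPKM in Control lungs. Adamts2, which trims procollagen, had 6.15, 9.29 and 6.83 FPKM in MSC lungs, 3.80, 4.25 and 4.52 FPKM in ALI lungs and 4.93, 4.34 and 4.33 FPKM in Control lungs. The others named by the rule were Gxylt2, Ano9, Itgb4, Cspg4 and Meg3, with log2 fold changes against Control from 0.41 to 1.26, and the calls of Cspg4 and Meg3 were lost under 8 and 7 alternatives.

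Nr4a1, Dusp1 and Dusp5 were among the genes below both. Nr4a1, an orphan nuclear receptor induced by antigen and growth factors (chr15:101254269-101274795, plus strand), had 9.89, 5.41 and 7.95 FPKM in MSC lungs, 25.4, 28.1 and 37.0 FPKM in ALI lungs and 13.5, 23.5 and 16.6 FPKM in Control lungs (against Control -1.19 ± 0.24, edgeR adjusted p = 0.00797; against ALI -2.01, edgeR adjusted p = 0.00125). Dusp1, the phosphatase that switches off p38 and JNK, had 39.3, 42.6 and 30.7 FPKM in MSC lungs, 67.7, 65.6 and 66.0 FPKM in ALI lungs and 56.2, 83.3 and 57.8 FPKM in Control lungs (against Control -0.80 ± 0.16, edgeR adjusted p = 0.00457). Dusp5, a nuclear ERK phosphatase, had 3.40, 3.28 and 3.92 FPKM in MSC lungs, 14.5, 16.1 and 14.7 FPKM in ALI lungs and 4.79, 6.16 and 5.26 FPKM in Control lungs. In each of these genes all 3 MSC libraries lay below all ALI and Control libraries. G0s2, an inhibitor of fat breakdown, Cnr2, the cannabinoid receptor of immune cells, and Rab44 fell below both as well. Egr1, a growth-factor induced transcription factor, and Rspo3, a Wnt enhancer, did so too but lost their calls under 6 and 7 alternatives.

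The tpMSC libraries differed from the MSC libraries in 7 genes (0.0305% of those tested), with 2891 genes at an unadjusted p under 0.05 and 671 called in DESeq2. The count was 84, 63 and 17 without MSC replicate 1, 2 and 3 and 1, 1 and 0 without Control replicate 1, 2 and 3. Higher in tpMSC lungs were Id1, Id3, Gja4 and Bcl6b, which endothelium expresses. Id1 had 79.4, 81.1 and 66.9 FPKM in tpMSC lungs and 49.0, 45.8 and 50.2 FPKM in MSC lungs (log2 fold change tpMSC against MSC 0.67, edgeR adjusted p = 0.0267). Lower were Pla2g7, Iglv2 and Igkv3-12, the last pair immunoglobulin segments. Pla2g7, a lipase that degrades platelet-activating factor, had 17.5, 15.9 and 20.4 FPKM in tpMSC lungs and 30.5, 45.6 and 37.2 FPKM in MSC lungs (log2 fold change tpMSC against MSC -1.05, edgeR adjusted p = 0.0267). The groups did not overlap for either gene.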

How the data were processed

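Poly(A) RNA of whole lung was sequenced as strand-marked paired-end libraries, per the labels' protocols. The deposited table gives raw read counts and FPKM per gene and library, per the file headers, with 1 column for each library. The submitters' processing notes name HISAT2 2.0.4, StringTie 1.3.4d, cutadapt 1.9, edgeR, DESeq2 and GRCm38, with no role. How reads were counted, with which strand setting and gene models, is not given in the sources used here, so overlapping, antisense and near-identical genes are uncertain. The positions in the deposited table are not those of GRCm38, and gene positions were taken from GENCODE M21 by gene ID.

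The deposited counts of all 12 libraries were fitted together with edgeR 4.0.16 (R 4.3.3, filterByExpr by group, TMM, robust quasi-likelihood test), 1 mean per group, so all groups share 1 estimate of the spread. A gene was called at a Benjamini-Hochberg adjusted p under 0.05 over 22915 genes. SE is an approximate standard error, the absolute log2 fold change divided by the square root of the F statistic of the test. The intervals are built from it and are approximate too. The deposited FPKM values are shown as levels and were tested only in alternatives. With 53083002 to 70209229 counts per library the median biological coefficient of variation was 0.184. A fold against a group with no count used 3 counts over the group as its floor, and intervals are 95%.

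Named genes are the 12 largest rises and 12 largest falls among called genes without overlap that averaged at least 1 FPKM in the higher group, up to 4 called members of smallest p in each gene list, and up to 8 genes above and 8 below both Control and ALI. Predicted genes, pseudogenes and antigen receptor segments were left out of the first and last. Some genes that the rule names are not reported here. The members, the lists and the rules were chosen with earlier results of these data known. Alternatives were DESeq2 1.42.0, limma 3.58.1 on voom and FPKM values, other scalings and filters, fewer groups, a replicate block and leaving out each library. The procedure was tested on simulated data.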

Additional observations from a re-analysis of the deposited data

How the results depend on the processing

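Calls in MSC against Control numbered 2526 to 4683 as single MSC or Control libraries were left out, with 1532 to 2637 higher, 994 to 2046 lower and 1042 to 1814 of at least 2-fold. With limma on log2(FPKM + 1), 546 calls were of at least 2-fold, since the added 1 shrinks the change of low genes. Between 58.3% and 99.0% of the 4265 calls were kept under the alternatives run, with 0 in the opposite direction. The alternatives, other scalings among them, put the median log2 fold change of all genes between -0.028 and 0.004. The share of calls that were higher was 56.7% and ranged from 48.5% to 61.3%. Calls in MSC against ALI numbered 3601 in DESeq2 and 1113 to 3043 without 1 MSC or Control library, and those in ALI against Control 7500 to 9437. For tpMSC against MSC the count of 7 became 671 in DESeq2, 13 with limma on log2(FPKM + 0.1), 12 without a filter on low counts and 0 to 84 without 1 MSC or Control library. The cause of these differences was not tested. With the replicate number as a block, 4058 genes were called in MSC against Control and 4 in tpMSC against MSC. Samples with the same number did not deviate together (r = 0.0206, -0.0204 and -0.108), so the numbers were not taken to pair them. Over the 244 named genes called in MSC against Control, 189 lost the call under none of the alternatives and 0 reversed, and 233 of 4148 values computed lost the call. Of 1819 list counts computed, 278 moved by over 1.5 times. With 3 libraries a group, small differences in low genes could not be resolved.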
